A study of Gallus gallus with 6 samples.

Results

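The let-7 family of microRNAs (miRNAs, short RNAs that repress the messenger RNAs they pair with) was followed through leg muscle development of the Xinghua chicken, a breed of Gallus gallus. Every entry whose name begins with gga-let-7 was taken, on either arm of its hairpin, which gave 16 of the 846 entries in the tables and 16 of the 534 with a miRBase-style name. All 16 were listed in each of the 6 libraries. The groups were female leg muscle at embryonic day 11 (E11), at embryonic day 16 (E16) and at day 1 after hatching (P1). Each had 2 samples, and no treatment of the birds was named. The labels describe RNase R treatment and ribosomal RNA depletion, whose bearing on the values below was not tested. The labels do not say whether both samples of an age are different birds, pools or repeat preparations. The tests below set differences between ages against the spread between samples, and that spread may be technical.

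Vertebrate let-7 miRNAs are encoded by many genes, and their main products, which come from the 5p arm of the hairpin, share 1 seed, the bases that choose targets. LIN28 proteins block their maturation in early and undifferentiated cells, and mature let-7 generally accumulates as cells leave the cycle and differentiate, skeletal muscle cells among them. The 3p arm is usually discarded as the passenger strand. In chicken the 5p-side entries were gga-let-7a-5p, gga-let-7b (listed without an arm), gga-let-7c-5p, gga-let-7d and gga-let-7i (likewise without an arm), gga-let-7f-5p, gga-let-7g-5p, gga-let-7j-5p and gga-let-7k-5p. The 3p entries were gga-let-7a-3p, gga-let-7a-2-3p, gga-let-7c-3p, gga-let-7f-3p, gga-let-7g-3p, gga-let-7j-3p and gga-let-7k-3p. The species prefix is left out below.

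RefSeq gene names for assembly GRCg7b place several of these genes beside one another, within 50 kb. let-7a-3 lies beside let-7b, and let-7a-1 beside let-7f and let-7d. let-7c has miR-99a and miR-125b as neighbours, and let-7a-2 has miR-100, miR-6675 (not analysed here) and miR-125b-1. let-7j lies beside let-7k. let-7g has miR-135a-1 near it, and let-7i has no miRNA gene within that distance. The files use another build, so only names and neighbours were taken from this annotation.

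Reads could not always be assigned to 1 member. let-7a-5p and let-7j-5p had counts that differed by between 0.207% and 6.51% in a library, so they are treated as 1 entry and let-7a-5p is the one reported, which leaves 15 members. A provisional entry without a miRBase-style name carried counts within 2.21% of those of let-7a-5p. Members of the family differ by few bases, and the program that assigned reads was not given in the sources used here, so a split of reads between close members is uncertain. The deposited values carry the header FPKM but were read as counts, for the reasons given under processing. Each count was taken to stand for a whole mature miRNA, and levels of members were compared without dividing by length.

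Library totals ran from 303556 to 2641042 counts, with the E11 libraries shallowest. The tissue label was checked against muscle miRNAs (miR-1a, miR-133, miR-206 and miR-499), which took 1.28% and 1.04% of counts in the E11 libraries, 7.37% and 7.92% at E16 and 12.1% and 15.4% at P1. Other cell types were also represented. Epithelial miRNAs took 1.18% and 1.21% of counts at E11 and at most 0.0997% in any later library, leukocyte miRNAs between 0.678% and 2.19%, and erythroid miRNAs between 0.285% and 3.05%, with the highest value in P1 replicate 1. Cartilage miRNAs went from 0.525% and 0.329% at E11 to 0.0872% and 0.0971% at P1. Endothelial miR-126 took 1.55% and 2.18% at E11 and between 3.77% and 5.96% later. The part that cell makeup had in the let-7 values below was not tested, and in whole muscle fewer cells of a type and less RNA per cell cannot be told apart.

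The let-7 family as a whole held a few percent of all counts at every age. It took 4.53% and 2.25% of the counts in E11 replicates 1 and 2, 4.60% and 4.49% at E16, and 3.43% and 3.90% at P1. The E16 libraries were nearly equal, while the E11 libraries were further apart than the replicates of either later age, with replicate 2 the lowest of the 6 libraries. The mean was 3.39% ± 1.61 for E11, 4.54% ± 0.0728 for E16 and 3.67% ± 0.338 for P1 (SD, n = 2). The difference between E16 and E11 was 1.15 percentage points (exact two-sided permutation test, p = 0.667), that between P1 and E16 was -0.879 (p = 0.333), and that between P1 and E11 was 0.272 (p = 1). With 2 samples against 2 the smallest p this test can give is 0.333. Without E11 replicate 2 the difference between E16 and E11 was 0.00967 points and that between P1 and E11 was -0.869. Without E11 replicate 1 they were 2.29 and 1.41. The totals behind these shares include let-7j-5p and entries without a miRBase-style name. Such unnamed entries took 42.9% of counts in E11 replicate 1 but only 32.1% in P1 replicate 2. Divided by named counts alone, the let-7 share was highest in E11 replicate 1 (7.95%) and lowest in E11 replicate 2 (3.68%). The E16 pair gave 7.30% and 7.23%, the P1 pair 5.25% and 5.75%. By this measure E16 minus E11 was 1.45 points, while P1 minus E11 was -0.312.

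After TMM scaling, which corrects library totals for a few dominant entries, the summed let-7 level was 40177 and 19112 CPM (counts scaled to a common library total) at E11, 44139 and 43979.7 CPM at E16, and 38986 and 48553 CPM at P1. On this scale the P1 libraries lay on either side of the E16 libraries, whereas as a share of raw counts both P1 libraries lay below E16. E11 replicate 2 was the low library on both scales. All 8 of the 5p-side members were higher in E11 replicate 1 than in E11 replicate 2, by between 1.35 times for let-7d and 2.66 times for let-7k-5p, as were 4 of the 7 entries of the 3p arm. The share of all entries higher in replicate 1 was not computed, and members measured in the same libraries are not independent. Changes from E11 carry the spread between the E11 libraries.

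**Figure D1:**
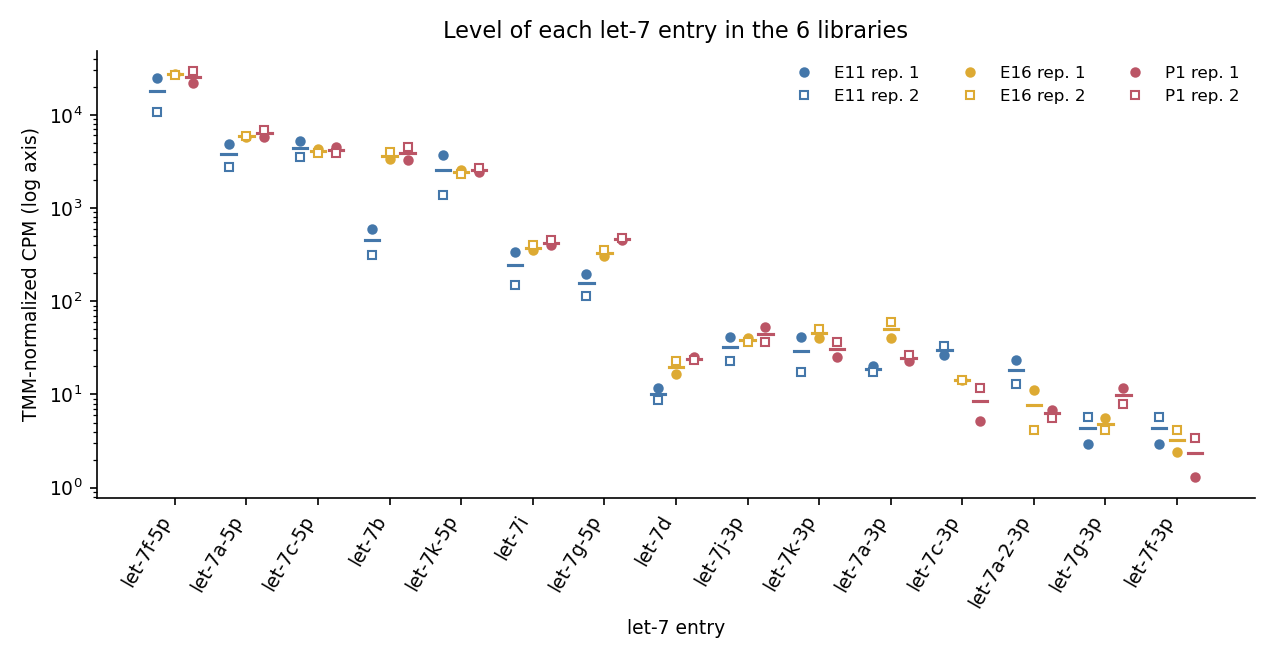
TMM-normalized CPM on a log axis for the 15 let-7 members; circles are replicate 1, open squares replicate 2, bars the mean of an age, and colours the ages. let-7b lies at 311 and 601 CPM at E11 and at 3285 CPM or more in the 4 later libraries, while let-7f-5p stays the most abundant member throughout.

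let-7b was the member that changed most with age. In the E11 libraries it had 206 and 216 counts, in the E16 libraries 4190 and 3848, and in the P1 libraries 7626 and 7969. These correspond to 601 and 311 CPM, 3346 and 3971 CPM, and 3285 and 4501 CPM. All 4 later libraries lay far above both E11 libraries, and the E16 and P1 libraries overlapped. let-7b rose from E11 to E16 with a log2 fold change of 3.01 (SE 0.46, adjusted p = 0.0147) and from E11 to P1 with 3.10 (SE 0.46, adjusted p = 0.00646) in the quasi-likelihood test of edgeR, with p-values adjusted by Benjamini-Hochberg over 289 entries. From E16 to P1 its log2 fold change was 0.09 (SE 0.42, adjusted p = 0.955). The 2 rises share the E11 libraries and are not independent.

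The E16 call held in 15 of 17 alternatives and was lost when either E16 library was left out, which leaves 1 E16 sample. The log2 fold change did not shrink in those fits, at 3.16 without replicate 1 and 3.01 without replicate 2. The P1 call held in 16 of 17 and was lost without E16 replicate 2 (3.11, adjusted p = 0.0525). Without E11 replicate 1 the log2 fold changes of let-7b were 3.68 and 3.70, and with libraries scaled to their let-7 total they were 2.41 (adjusted p = 0.0448) and 2.50 (adjusted p = 0.0188). The last setting was chosen after seeing the data, and it compares let-7b with the total of its family, let-7b included.

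No other member passed at E16. Of the 13 members that passed the filter on low counts (let-7f-3p and let-7g-3p did not), 1 rose and none fell between E11 and E16, where 6.57% of all 289 entries were called, 2.42% higher and 4.15% lower at E16. The median log2 fold change of the 13 was 0.64, against -0.03 over all entries. The samples of the 2 ages did not overlap in 9 of the 13, while 56.4% of all entries did not overlap, and 2 of the 13 had an unadjusted p under 0.05, against 24.2% of all entries. The median moved with single E11 libraries: it was 1.26 without replicate 1 and 0.14 without replicate 2.

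Across hatching none of the 13 passed, in edgeR, in DESeq2 or in limma, and none had an unadjusted p under 0.05 in edgeR, where 0% of all entries were called and 12.8% had an unadjusted p under 0.05. The median of the members from E16 to P1 was 0.06, against 0.09 over all entries. Samples of the 2 ages did not overlap in 5 of the 13, against 51.2% of all entries.

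Between E11 and P1, 1 of the 13 members rose (let-7b) and 1 fell (let-7c-3p), where 30.4% of all entries were called, 14.2% higher and 16.3% lower at P1. The median was 0.52, against -0.15 over all entries, and 8 of the 13 did not overlap, against 65.1%. The members' median was 0.98 without E11 replicate 1, 0.17 without E11 replicate 2 and 0.07 with raw totals. An unadjusted p under 0.05 was found for 4 of the 13 and for 43.6% of all entries. Scaling by raw totals alone shifted the median of all entries from -0.15 to -0.62 in this comparison, and relative to all entries the members then had a median of 0.69, against 0.67 with TMM.

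**Figure D2:**
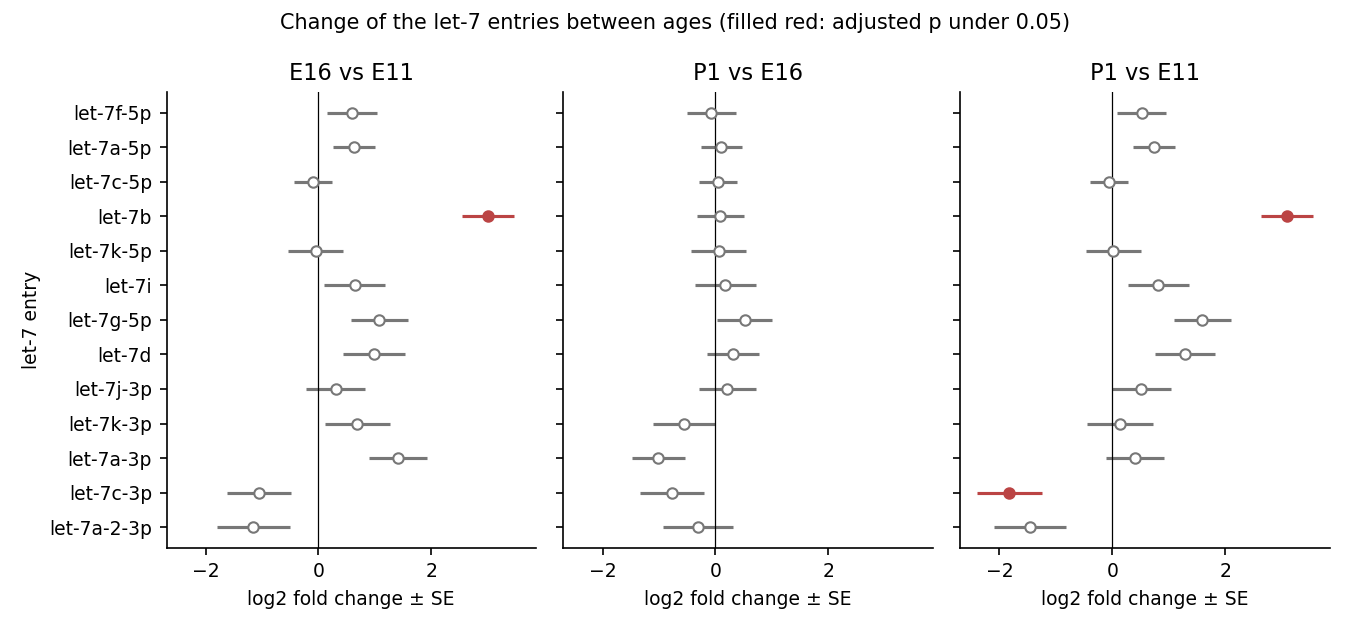
Log2 fold change with its standard error for the 13 let-7 members tested, in the 3 comparisons of ages, from edgeR fitted to all 6 libraries. Filled red points are the calls, which are let-7b in both comparisons with E11 and let-7c-3p at P1 against E11; no member is called between E16 and P1.

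The mix of members was dominated by let-7f-5p at every age. let-7f-5p made up 62.6% and 56.1% of let-7 counts in the E11 libraries, 62.0% and 61.0% at E16, and 56.4% and 60.7% at P1, and its ages overlapped apart from E16 with P1. let-7a-5p came next among the later libraries, with 12.0% and 14.4%, 13.1% and 13.6%, and 14.7% and 14.2% in the same order. Together let-7f-5p, let-7a-5p, let-7c-5p, let-7b and let-7k-5p took between 97.4% and 98.3% of let-7 counts in every library.

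The share of let-7b went from 1.50% and 1.63% of let-7 counts at E11 to 7.58% and 9.03% at E16 and 8.43% and 9.27% at P1. The 2 E11 libraries, which differed in let-7 level, had nearly the same share of let-7b. As a percentage of the let-7f-5p count, let-7b stood at 2.39% and 2.90% in the E11 libraries, 12.2% and 14.8% in the E16 libraries and 14.9% and 15.3% in the P1 libraries. Such a ratio within a library does not depend on how libraries are scaled. In the same libraries the summed muscle miRNAs were lowest at E11 and highest at P1. Endothelial miR-126 was also lowest at E11, and the summed epithelial, cartilage and leukocyte miRNAs were highest there. Whether any of these bears on let-7b was not tested.

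let-7c-5p and let-7k-5p had lower shares at both later ages than at E11, and let-7g-5p higher ones. let-7c-5p held 13.0% and 18.7% of let-7 counts in the E11 libraries, 9.69% and 8.93% in those of E16, and 11.6% and 8.08% in those of P1. Both later ages lay below E11. let-7k-5p held 9.16% and 7.23%, 5.79% and 5.33%, and 6.28% and 5.47% at the same ages, again with E11 above the rest. let-7g-5p, a minor member, went from 0.487% and 0.603% to 0.688% and 0.798% and then to 1.17% and 0.990%, with no overlap between any of the ages. let-7i held between 0.776% and 1.02% in all libraries. Shares of 1 total are not independent of each other, and no test was made on them.

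The mixes of 2 libraries were compared by the share of let-7 counts that would have to be reassigned to make them equal. This was 8.49 percentage points between the E11 libraries, 2.27 between the E16 libraries and 5.14 between the P1 libraries. It lay between 7.42 and 12.7 points for an E11 with an E16 library, between 8.36 and 12.8 for E11 with P1, and between 1.25 and 5.64 for E16 with P1. The E16 and P1 mixes were therefore about as close to each other as replicates were, while the 2 E11 mixes were themselves apart, mainly in let-7f-5p and let-7c-5p.

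**Figure D3:**
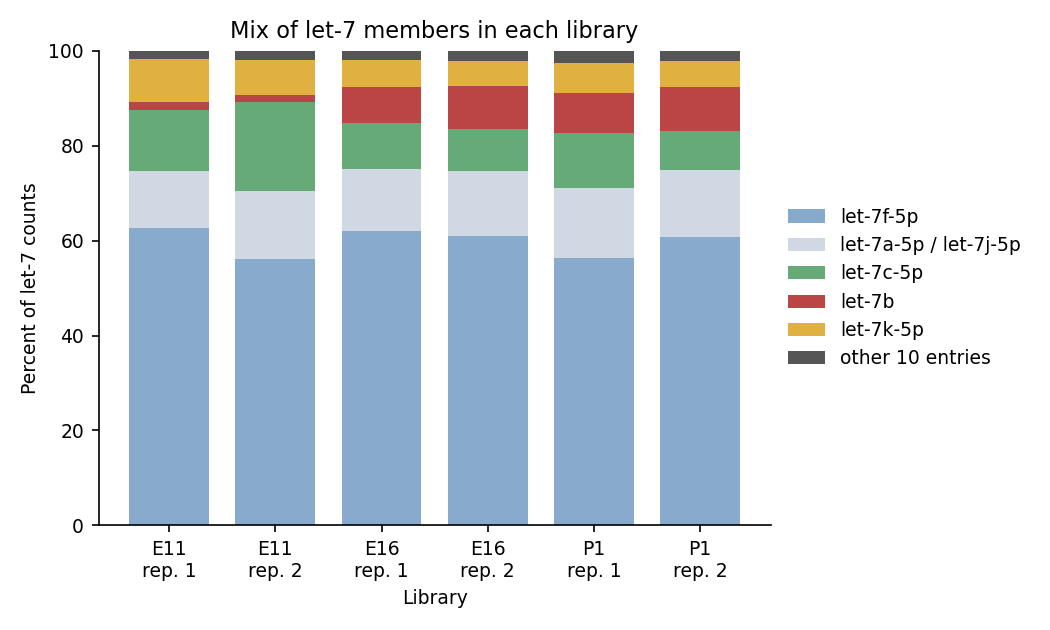
Percent of let-7 counts held by each member in the 6 libraries, with let-7j-5p left out as a repeat of let-7a-5p. let-7f-5p holds between 56.1% and 62.6% in each, and the let-7b band widens from under 2% at E11 to between 7.58% and 9.27% later.

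None of the other abundant members was called in any comparison. let-7f-5p, encoded beside let-7a-1 and let-7d, had 25132 and 10716 CPM at E11, 27357 and 26809 at E16, then 21998 and 29470.0 at P1. let-7a-5p had 4827 and 2744 CPM, 5778 and 5984, and 5738 and 6916. Its E11 libraries lay below all later ones, but it was not called at E16 (log2 fold change 0.64, SE 0.37, adjusted p = 0.345) or at P1 (0.74, SE 0.37, adjusted p = 0.169). let-7c-5p had 5236 and 3571 CPM at E11, 4277 and 3926 at E16, then 4511 and 3923 at P1, and let-7k-5p had 3680 and 1382, 2555 and 2343, and 2450.3 and 2658 CPM. For both, the E11 libraries enclosed all the others. The order of mean level at E11 was let-7f-5p, let-7c-5p, let-7a-5p, let-7k-5p and let-7b. Each E11 library by itself had this order, although across the 2 libraries let-7c-5p, let-7a-5p and let-7k-5p overlapped. At P1 the order of mean level was let-7f-5p, let-7a-5p, let-7c-5p, let-7b and let-7k-5p. There let-7c-5p and let-7b overlapped, with let-7b the higher in replicate 2 only, and the other neighbours did not overlap.

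The minor 5p-side members were let-7g-5p, let-7i and let-7d. let-7g-5p had 196 and 115 CPM at E11, 303 and 351 at E16, then 455 and 481 at P1. Each later age lay above the one before. At P1 against E11 its log2 fold change was 1.60 (SE 0.51) with an adjusted p of 0.05001, just above the threshold, and 5 of 17 alternatives called it, DESeq2 among them (adjusted p = 0.00228), but none of the 6 fits without a library. let-7i had 336 and 148 CPM, 351 and 399, and 397 and 452 CPM, and was not called at P1 against E11 (0.82, SE 0.54, adjusted p = 0.306). let-7d was the rarest, with 4 and 6 counts at E11, 21 and 22 at E16, then 59 and 41 at P1. In CPM these were 11.7 and 8.64, 16.8 and 22.7, and 25.4 and 23.2, and let-7d was not called at P1 against E11 either (1.29, SE 0.53, adjusted p = 0.106). let-7d and let-7f are neighbouring genes, yet let-7f-5p had 25734 CPM on average at P1 and let-7d 24.3 CPM.

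The 3p arms together held between 0.263% and 0.603% of let-7 counts. let-7c-3p, the passenger strand of let-7c, had 26.3 and 33.1 CPM at E11, 14.4 and 14.4 at E16, then 5.17 and 11.9 at P1, from 9 and 23, 18 and 14, and 12 and 21 counts. No 2 ages overlapped. It fell from E11 to P1 with a log2 fold change of -1.82 (SE 0.57, adjusted p = 0.0493). This call lay close to the threshold, held in 6 of 16 alternatives and was lost in each of the 6 fits without 1 library, where the log2 fold change lay between -2.45 without P1 replicate 2 and -1.38 without P1 replicate 1.

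The other 3p entries were not called in any comparison. let-7a-3p was highest at E16, with 20.4 and 17.3 CPM at E11, 39.9 and 59.8 at E16, then 22.8 and 26.5 at P1. Its log2 fold change was 1.41 from E11 to E16 (SE 0.51, adjusted p = 0.144) and -1.01 from E16 to P1 (SE 0.47, adjusted p = 0.404). let-7a-2-3p was highest at E11, with 23.3 and 13.0 CPM, against 11.18 and 4.13 at E16 and 6.89 and 5.65 at P1 (P1 against E11 -1.46, SE 0.64, adjusted p = 0.123). let-7j-3p had between 23.1 and 53.0 CPM and let-7k-3p between 17.3 and 50.6 CPM, both with overlap between E11 and each later age. let-7f-3p had between 1 and 6 counts in a library and let-7g-3p between 1 and 27.

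Because let-7a and let-7j cannot be separated on the 5p side, their 3p products give the only view of the separate hairpins, and a partial one. The genes let-7a-1 and let-7a-3 had no separate 3p entries. let-7j-3p supplied 48.3% and 43.2% of these 3p counts at E11, 44.3% and 36.1% at E16, then 64.1% and 52.9% at P1. let-7a-3p supplied 24.1% and 32.4%, then 43.5% and 59.8%, then 27.6% and 38.8%. let-7a-2-3p supplied 27.6% and 24.3% at E11 and between 4.12% and 12.2% later. The E11 values rest on only 29 and 37 counts per library.

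The arm ratio, the number of 5p counts for each 3p count, favoured the 5p arm in every pair and library but differed widely between members. With the libraries of an age summed, let-7f had 3210 counts of the 5p arm per 3p count at E11, 8605 at E16 and 11471 at P1. The E11 value rests on replicate 2, with 4 counts of the 3p arm, and in replicate 1, with 1 such count, the ratio was 8611, close to that of E16. let-7c had 134, 286 and 528. For let-7a with let-7j, the let-7a-5p count was set against the sum of let-7a-3p, let-7a-2-3p and let-7j-3p, which gave 53.9, 61.5 and 81.7. This ratio would be too low if reads had been split between let-7a-5p and its repeats rather than counted in each, which was not tested. let-7k had 85.4, 55.3 and 84.5, and let-7g had 29.4, 65.5 and 46.5. Among the 62 miRNAs of the series with at least 15 counts on each arm, let-7f had the second highest summed ratio of 5p to 3p counts, let-7c ranked 8, and let-7k, let-7a with let-7j and let-7g ranked 14 to 16.

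For let-7c the 3p share was lower at each later age. Its 3p arm made up 0.499% and 0.919% of its counts at E11, 0.335% and 0.367% at E16, then 0.114% and 0.301% at P1. The ages did not overlap, although the exact 95% binomial intervals of E11 replicate 1 (0.228% to 0.945%) and P1 replicate 2 (0.187% to 0.460%) did. Intervals cover counting error only, since reads without molecular identifiers are not independent molecules. The change in the log2 arm ratio from E11 to P1 was 1.88 (SE 0.62) in limma fitted over the 62 pairs, with an adjusted p of 0.143.

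For let-7f the E16 libraries overlapped both other ages, and E11 replicate 1 lay barely above P1 replicate 2. Its 3p arm made up 0.0116% and 0.0537% of its counts in the E11 libraries, 0.00876% and 0.0154% in the E16 libraries and 0.00587% and 0.0115% in the P1 libraries, with E11 replicate 2 well above the rest. Summed over libraries, the 3p arm made up 0.0311% of its counts at E11 (5 counts, 95% interval 0.0101% to 0.0727%), 0.0116% at E16 (7 counts, 0.00467% to 0.0239%) and 0.00872% at P1 (9 counts, 0.00399% to 0.0165%). The log2 arm ratio changed by 1.81 from E11 to P1 (SE 0.73, limma adjusted p = 0.210). The 3p share of let-7a with let-7j was 1.81% ± 0.129 for E11, 1.60% ± 0.0570 for E16 and 1.1997% ± 0.313 for P1 (SD, n = 2), and both P1 libraries lay below all others (log2 arm ratio, P1 against E11, 0.65, SE 0.47, adjusted p = 0.438). let-7k had 1.17% ± 0.0974, 1.83% ± 0.405 and 1.18% ± 0.223, highest at E16. let-7g had 1.47% and 4.76% at E11, from 1 and 4 counts of the 3p arm, and between 1.16% and 2.49% later.

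Of the 5 let-7 pairs none was called in any comparison of ages by limma, where 0% of the 62 pairs were called. At P1 against E11, 2 of the 5 had an unadjusted p under 0.05, against 21.0% of all pairs, and in the other comparisons none did, against 4.84% in each. No alternative run called a let-7 pair.

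**Figure D4:**
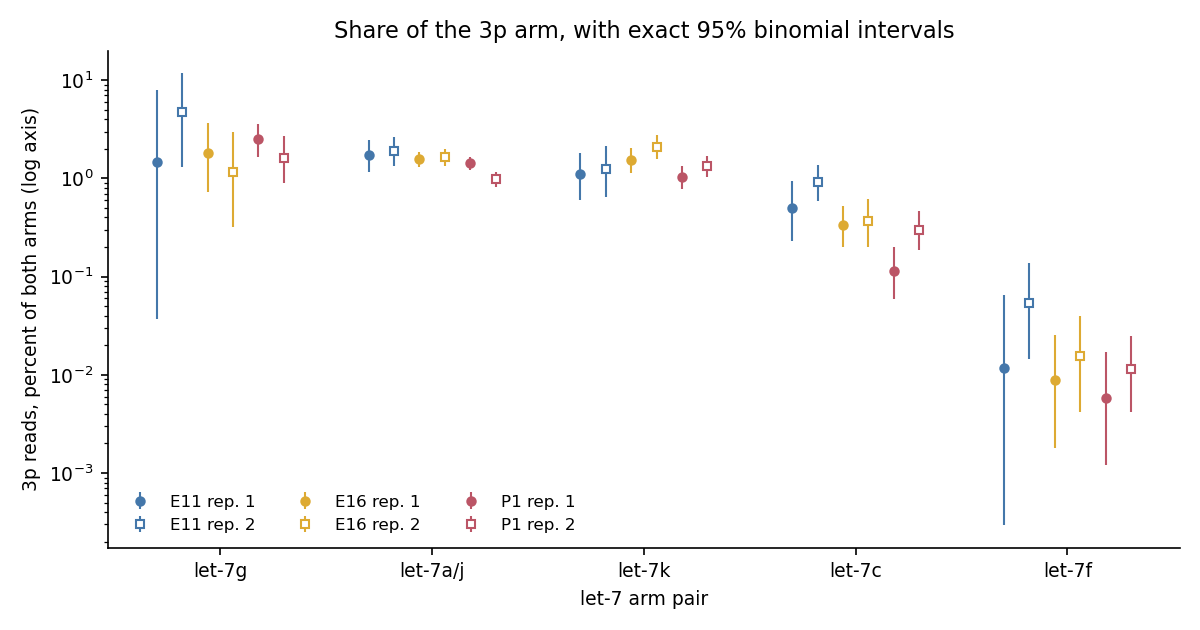
Share of 3p counts among the counts of both arms for each let-7 pair and library, on a log axis, with exact 95% binomial intervals for counting error. let-7f lies between 0.00587% and 0.0537%, highest in E11 replicate 2, and let-7c between 0.114% and 0.919%, while let-7a with let-7j and let-7k lie near 1% to 2%.

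Among the miRNAs encoded beside let-7c and let-7a-2, the abundant 5p arms did not share the E11 order of let-7. miR-99a and miR-100 are closely related, and miR-125b is a relative of the worm miRNA lin-4, which like let-7 times development in Caenorhabditis elegans. miR-100-5p had 18442 and 21786 CPM at E11, 9697 and 12774 at E16, then 12495 and 9926 at P1. miR-99a-5p had 1935 and 2420 CPM, 1957 and 1651, and 2136 and 2044, and miR-125b-5p had 1874 and 3305, 2025 and 1426, and 2278 and 2179. All 3 were higher in E11 replicate 2, the library in which every 5p-side let-7 member was lower. miR-125b-3p was instead higher in E11 replicate 1, with 2288 and 1446 CPM there and between 1051 and 1184 CPM later. Of the 5 tested entries of these neighbours (the arms of miR-99a and miR-125b, and miR-100-5p) none was called in edgeR with TMM scaling or in DESeq2. In that edgeR fit 6.57% of all entries were called at E16 against E11 and 30.4% at P1 against E11. miR-100-5p had an unadjusted p under 0.05 at E16 (log2 fold change -0.84, SE 0.32, adjusted p = 0.154) and at P1 (-0.84, SE 0.32, adjusted p = 0.0824) against E11. At P1 against E11, 2 of the 5 were called in limma on log2 values, where 77 of all 289 entries were, and 2 in edgeR with raw totals, where 84 were. Outside these 5, miR-135a-5p, named like the gene near let-7g, fell from E11 to P1 in edgeR (log2 fold change -2.69, SE 0.70, adjusted p = 0.0318). It was not called at E16 against E11 (-2.64, SE 0.72, adjusted p = 0.0778). Whether this bears on let-7g was not tested.

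The named miRNAs outside the family whose levels ran most like let-7b across the 6 libraries were entries of the muscle miRNAs miR-1a and miR-133c, with miR-17-3p and miR-15b-5p. Among 185 such entries the highest Pearson correlations of log2 CPM with let-7b were those of miR-1a-1-5p (0.99), miR-17-3p (0.99), miR-133c-3p (0.97), miR-1a-3p (0.96) and miR-15b-5p (0.95). miR-133c-3p had 245 and 150 CPM at E11, 1323 and 1298 at E16, then 2027 and 3568 at P1. Both P1 libraries lay above both E16 libraries for miR-133c-3p, while those of let-7b overlapped. miR-1a-1-5p and miR-17-3p were rare, at 5.84 and 4.32 CPM in the E11 libraries for both. The other arm of miR-17, miR-17-5p, did not share the pattern, with a log2 fold change of -0.001 (SE 0.37) from E11 to P1. With the summed let-7 level the highest were miR-148a-3p (0.95), miR-30e-3p (0.88), miR-133b (0.88), miR-219b (0.86) and miR-181a-5p (0.85). miR-148a-3p had 68274 CPM in E11 replicate 1 and 53710 in replicate 2, and so shared the low value of that library. These correlations rest on 6 libraries of 3 ages, whose separation at E11 many miRNAs share, and are given as a description.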

How the data were processed

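Small RNA counts of 6 leg muscle libraries were analysed, 2 per age. The deposited values were read as read counts per mature miRNA: per the file headers they are FPKM, but they are whole numbers from 1 upward whose totals differ several-fold between libraries. A rounded normalized value would make the count tests unsuitable. Per the submitters' processing notes, the tools included Trim Galore, Bowtie, TopHat and Cufflinks and the build was galGal4; no roles are given. The labels also describe RNase R treatment and ribosomal RNA depletion. Entries missing from a file were set to 0.

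Counts were fitted in R 4.3.3 with edgeR 4.0.16: filterByExpr (minimum count 10, minimum total 15) kept 289 entries, TMM scaling, 1 coefficient per age over all 6 libraries, quasi-likelihood F-tests, two-sided, with Benjamini-Hochberg adjustment over all entries and a threshold of 0.05. SE is the log2 fold change divided by the square root of F. Arm ratios, log2 of (5p + 0.5)/(3p + 0.5), were tested in limma 3.58.1 over 62 pairs. Correlations used log2(CPM + 0.5). Alternatives included DESeq2 1.42.0, other scalings and filters, and each library left out. The scripts were tested on simulated data, where the arm-ratio test missed part of the changes, so an uncalled arm ratio may still differ. The recovery required of that step was lowered after its result was seen. The simulated spread between replicates was set smaller than that of the data (biological coefficient of variation 0.467). Recovery in the simulation therefore does not measure the power of either test in these data. All let-7 entries, the neighbours miR-99a, miR-100 and miR-125b, and the most similar patterns were named by rule. miR-135a-5p was added after its values were seen. Members, lists and tests were chosen with earlier results of these data known. Replicates differed by more than sampling noise (chi-square per degree of freedom 171 to 489) and were kept separate.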

Additional observations from a re-analysis of the deposited data

How the results depend on the processing

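Called members. From E11 to E16 the count of called let-7 members, 1, was the same in 15 of 17 alternatives and ranged from 0 to 1 when a library was left out. From E11 to P1 it was 2, and 1 with a minimum count of 50 (which removed let-7c-3p), with only the 2 ages compared and with the replicate block, 3 with RLE normalization, among named entries and with repeats of let-7a-5p removed (where let-7g-5p was added), and 0 to 1 when a library was left out. In DESeq2 and with no filter it was 2, with let-7g-5p called and let-7c-3p not (adjusted p = 0.0586 and 0.214). When a library is left out, the lone sample of an age is assumed to vary like the other ages. From E16 to P1 it was 0 in all 17. Whether replicate numbers shared by the ages pair the samples cannot be told with 2 samples per age. Over 289 entries the replicate differences correlated at 0.03 (E11 with E16), -0.02 (E11 with P1) and 0.30 (E16 with P1). The replicate block lowered the calls over all entries from 19 to 13 at E16 and from 88 to 30 at P1 against E11, and let-7b stayed called in both.

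Over all entries, calls at E16 against E11 were 38 in DESeq2, 46 with no filter, 12 among named entries and 0 to 11 without a library. At P1 against E11 they were 28 with only the 2 ages compared and 10 to 61 without a library, and at P1 against E16 they were 13 with no filter and 2 in DESeq2, against 0.

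Directions. The log2 fold change of let-7f-5p at P1 against E11 was -0.018 with libraries scaled to the let-7 total, -0.0057 without E11 replicate 2 and 1.32 without E11 replicate 1, against 0.52. Of the 39 changes tested 17 lay within 1 SE of 0 and no direction was read from them, a rule adopted after seeing the data; their sign differed in 56 of 282 alternatives, and none was called. The P1 minus E11 difference in let-7 share was -0.312 points of named counts and ranged from -0.869 to 1.41 when a library was left out. With let-7j-5p counted separately, let-7f-5p held 52.2%, 54.2% and 51.2% of let-7 counts at E11, E16 and P1, let-7a-5p 11.8% at E16 and 12.7% at P1, and let-7b 1.37% at E11 and 7.74% at P1. The cause of these changes was not tested beyond what each setting alters. Depth limited the 3p arms, at 1 to 123 counts per entry and library.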
